A study of Homo sapiens with 6 samples.

Results

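Chromatin remodelling and histone modifying genes were examined for C-to-U edits laid down around RBFOX2 in full-length mRNA of HEK293T cells, a human embryonic kidney line. The genes were the protein-coding genes of GENCODE release 44 on chromosomes 1 to 22 whose symbols begin with SMARC, HDAC, KAT, KDM or KMT, or with CHD and a digit, and that had at least 1 row in any library. They numbered 46 genes with 62 isoforms, of 7684 genes and 9831 isoforms in all, or of 7190 genes and 9211 isoforms when only protein-coding genes on those chromosomes are counted. The prefixes took in 10 SMARC genes (SMARCA4, SMARCA5, SMARCAD1, SMARCAL1, SMARCB1, SMARCC1, SMARCC2, SMARCD1, SMARCD2 and SMARCE1) and 8 CHD genes (CHD1, CHD1L, CHD2, CHD3, CHD4, CHD6, CHD7 and CHD9). There were 3 HDAC genes (HDAC1, HDAC2 and HDAC3) and 5 KAT genes (KAT2A, KAT2B, KAT5, KAT7 and KAT14). The histone methylation enzymes were 10 KDM genes (KDM1A, KDM1B, KDM2B, KDM3B, KDM4A, KDM4C, KDM4D, KDM5A, KDM6B and KDM7A) and 6 KMT genes (KMT2A, KMT2C, KMT2D, KMT2E, KMT5A and KMT5B). The remaining 4, with KATNA1, KATNAL1 and KATNBL1 among them, share the KAT prefix only by spelling. They encode or resemble subunits of katanin, which severs microtubules, so they are not chromatin genes, and they are kept apart as the KATN genes.

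Nucleosomes are moved, ejected or rebuilt by ATP-driven remodelling complexes whose motor subunits include the SMARCA and CHD proteins. Histone tails are acetylated by KAT enzymes and deacetylated by HDAC enzymes, and their lysines are methylated by KMT and demethylated by KDM enzymes. RBFOX2 is an RNA-binding protein best known as a splicing regulator that recognises UGCAUG in RNA.

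All libraries came from the same methanol-fixed cell line, whose cell line field reads HEK293XT while the titles read HEK293T, and 3 groups of 2 libraries were compared. In RBFOX2-INSCRIBE (libraries 1 and 2), fixed cells received a rabbit antibody to RBFOX2 and then APO1-Nb, a purified fusion of the C-to-U deaminase APOBEC1 with a nanobody against rabbit antibodies. Enzyme-only cells (libraries numbered 2 and 3 in the titles) received APO1-Nb without the antibody, and buffer-only cells (libraries 1 and 2) received neither. The enzyme thus acted in fixed cells of a single line, and per the methods replicates were made on separate slides and are called technical in the study's legends for short reads. The p-values therefore measure only the spread between these libraries, which may be technical.

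Each library lists the edited positions of each isoform with an edit fraction, the share of reads of that isoform that carried the edit. Read counts are not part of these tables, so the depth behind a fraction is unknown, and a gene that was read more deeply can list more edited Cs. The level of a gene is given here as the number of distinct edited Cs on its own strand, or as that number per C of its exons (editsC, in percent). Libraries listed 78381 to 216646 isoform and position pairs. Of the 5 genes set as markers of this line, VIM had 0 to 6 edited Cs per library, KRT18 4 to 32 and NEFM 5 to 24, KRT8 and ENO2 had none, and the 7 markers of liver, blood and fibroblasts (ALB, APOA1, PTPRC, CD3E, LYZ, COL1A1 and COL3A1) had none. A gene without a listed edit is not thereby shown to be unexpressed. The 2 enzyme-only libraries differed, with 81242 edited Cs over all protein-coding genes in library 2 against 144825 in library 3. Results that rest on either are given without it.

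Edited Cs next to UGCAUG that recurred in both RBFOX2-INSCRIBE libraries and in no control library were few, and the stretches of RNA around these motifs are shown first because they show where edits and the RBFOX2 motif lie together in single genes; they were picked for that nearness and are no test of it. Among the 46 genes, 35 had at least 1 UGCAUG in a listed isoform, and 66 such motifs were found on the RNA strand of the spliced isoforms, 30 in 3′ UTRs and 33 in coding sequence. Edited Cs of RBFOX2-INSCRIBE lay within 50 nt of 26 of these motifs, and 6 motifs in 4 genes had a recurrent RBFOX2-INSCRIBE-only edit within that distance. The 30-base windows below are written 5′ to 3′ on the RNA strand with T for U, from hg38; capitals mark the motif and any recurrent edited C that falls inside the window.
SMARCAD1, 3′ UTR, chr4:94290484-94290513, plus strand: CatctaaaggcagcattaggtacTGCATGg
KAT2B, 3′ UTR, chr3:20153890-20153919, plus strand: cagtgataatCTGCATGaaggaaaaagaaC
SMARCA5, coding sequence, chr4:143538633-143538662, plus strand: CattttggaagattatTGCATGtggagaaa
KDM5A, 3′ UTR, chr12:282443-282472, minus strand: ttgatgtgtagaTGCATGacttcctcacta
KDM5A, 3′ UTR, chr12:282402-282431, minus strand: accagctttgccTGCATGattCaaatttgt
KDM5A, 3′ UTR, chr12:282361-282390, minus strand: attataaattatTGCATGtcataccttgaa

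The SMARCAD1 window, in the gene of an ATP-driven remodeller related to helicases, had 3 recurrent RBFOX2-INSCRIBE-only edits within 50 nt of its motif. They lay 36 and 23 nt before and 28 nt after the first base of the motif, and their edit fractions in RBFOX2-INSCRIBE libraries 1 and 2 were 1.00% and 1.11%, 1.00% and 1.11%, and 2.00% and 1.11%. No library of either control listed an edited C within 50 nt of either UGCAUG of SMARCAD1. In KAT2B, which encodes the acetyltransferase PCAF, the C directly before the motif and a C 18 nt after its first base were edited at 1.10% and 1.35% in the 2 RBFOX2-INSCRIBE libraries. Its only UGCAUG likewise had no edited C nearby in any control library. The KAT2B Cs at chr3:20153718 and chr3:20153998, further than 50 nt from the motif, had the same 2 fractions. Equal fractions, here and in SMARCAD1, may come from single reads or from the same read. Without read counts this was not tested.

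KDM5A, a jumonji-type histone demethylase, carries 5 UGCAUG in its 3′ UTR, and 3 of them are spaced 41 bases apart in the windows shown. The single recurrent edit among them, 9 nt after the first base of the middle motif, had fractions of 1.72% and 2.50%. Within 50 nt of any KDM5A motif, RBFOX2-INSCRIBE listed 7 and 6 edited Cs, enzyme-only 3 and 1, and buffer-only 0 and 0. In SMARCA5, the motor subunit of the ISWI remodellers, the 2 recurrent edits lay 40 and 16 nt before a motif in coding sequence, at 0.70% and 0.12% and at 0.14% and 0.59%. SMARCA5 as a whole had 8 and 14 edited Cs near a motif in RBFOX2-INSCRIBE, 1 and 9 in enzyme-only and 1 and 2 in buffer-only, so 1 enzyme-only library lay within the range of the RBFOX2-INSCRIBE libraries.

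**Figure D1:**
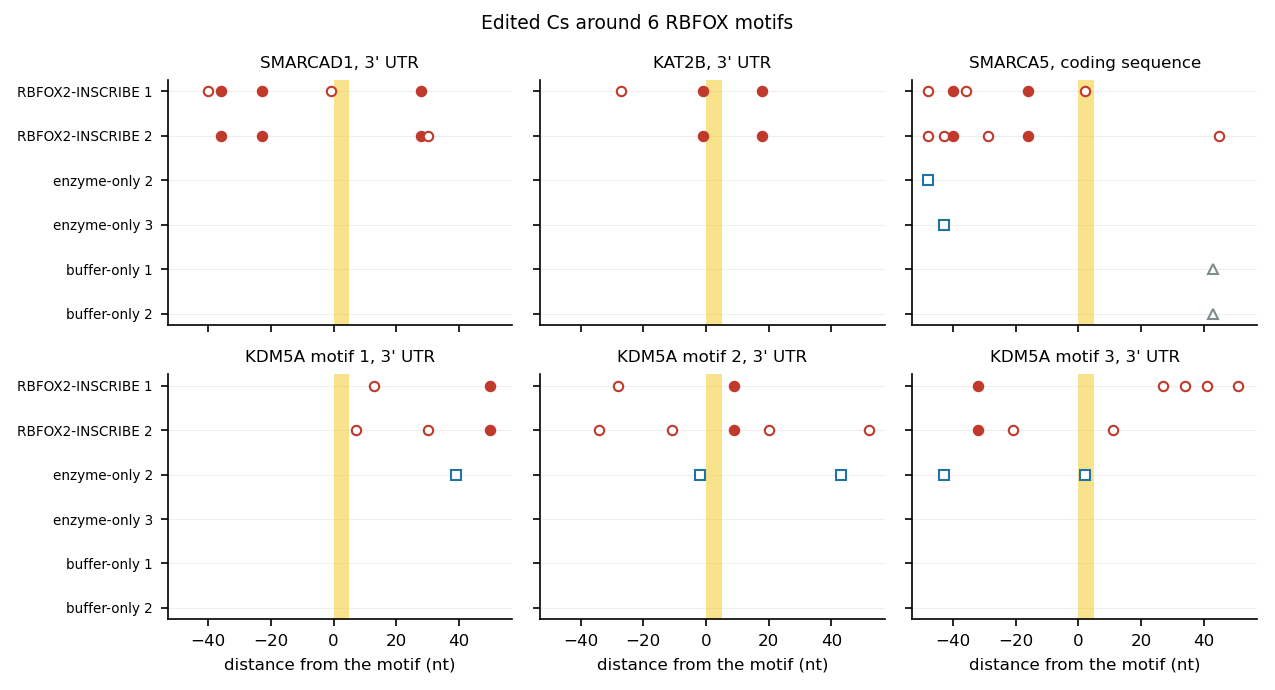
Positions of edited Cs around the 6 UGCAUG motifs whose windows are printed in the text, by library. The x axis gives the distance in nt from the first base of the motif (yellow band, the motif), filled symbols are edits in both RBFOX2-INSCRIBE libraries and no control, and open symbols are other edits. SMARCAD1 and KAT2B have no symbol in the 4 control rows.

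Pooled over the 46 genes, the motif was near edited Cs of RBFOX2-INSCRIBE more often than near Cs at large. Enrichment was computed as the share of edited Cs within 50 nt of UGCAUG over that share among all Cs of the same isoforms. The latter share, averaged over the edited Cs of a library, was 1.67% to 1.98% depending on the library. Enrichment was 1.44 and 1.45 in RBFOX2-INSCRIBE (38 of 1425 and 45 of 1564 edited Cs), 0.586 and 0.710 in enzyme-only (6 of 581 and 16 of 1163) and 0.207 and 0.655 in buffer-only (2 of 579 and 6 of 545). Both RBFOX2-INSCRIBE libraries lay above all 4 control libraries. The difference was 0.80 from enzyme-only and 1.01 from buffer-only, each with a two-sided exact permutation p of 0.33, the smallest that 2 against 2 libraries can give. Most RBFOX2-INSCRIBE edits near a motif lay in the 4 genes shown above, which were picked for such edits. These were SMARCA5 (8 and 14), KDM5A (7 and 6), SMARCAD1 (7 and 5) and KAT2B (3 and 2), and many genes had none. Without SMARCA5 enrichment was 1.54 and 1.37 in RBFOX2-INSCRIBE, 0.630 and 0.425 in enzyme-only and 0.135 and 0.577 in buffer-only. It was not computed without all 4.

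Over all protein-coding genes the same measure was 1.68 and 1.72 in RBFOX2-INSCRIBE and 1.00 to 1.08 in the 4 control libraries. The lower level of the chromatin genes in the control libraries rests on 2 to 16 edited Cs per library. With 20 nt in place of 50 nt the chromatin genes had group means of 1.61, 0.76 and 0.33 in RBFOX2-INSCRIBE, enzyme-only and buffer-only, and with edits of a fraction of at least 0.02 they had 2.14, 1.06 and 0.56. For the shorter GCAUG, which is contained in UGCAUG, the means were 1.16, 0.80 and 0.98. When each edited C was set against the Cs of its own exon, an alternative added after seeing the data, RBFOX2-INSCRIBE had 1.25 and 1.01, so that library 2 lay near 1, while enzyme-only had 0.598 and 0.747 and buffer-only 0.279 and 0.846.

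Beyond the 4 genes with recurrent motif edits, CHD1, a remodeller that reads methylated histone H3, had 3 and 7 edited Cs near its 2 motifs in RBFOX2-INSCRIBE, 1 and 0 in enzyme-only and none in buffer-only. HDAC2 had 3 near a motif in RBFOX2-INSCRIBE library 1 and none in the other 5 libraries. KMT2D holds 6 UGCAUG, the highest number among the genes, and had no edited C within 50 nt of any of them in any library. All 6 lie in its coding sequence, which had few edits anywhere, with 2 and 1 edited Cs among 5444 Cs in RBFOX2-INSCRIBE.

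The genes differed widely in how many edited Cs they listed. All 46 together had 1425 and 1564 edited Cs in RBFOX2-INSCRIBE, 581 and 1163 in enzyme-only and 579 and 545 in buffer-only. The ratio of the RBFOX2-INSCRIBE mean to the enzyme-only mean was 1.71 and to the buffer-only mean 2.66, beside 1.70 and 2.83 over all protein-coding genes. The chromatin genes thus made up 0.715% to 0.848% of all edited Cs of protein-coding genes in every library. Per library 37 to 42 of the 46 genes had an edited C, 34 genes had one in all 6 libraries, and 8 genes stayed under 5 edited Cs in every library.

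The 5 most edited genes, SMARCA5, SMARCC1, HDAC2, HDAC1 and SMARCE1, held 45.6% to 55.2% of the edited Cs of the whole set in each library. SMARCA5 (chr4:143513702-143557486) had 190 and 230 edited Cs in RBFOX2-INSCRIBE, 63 and 166 in enzyme-only and 63 and 61 in buffer-only. Both RBFOX2-INSCRIBE libraries were above both libraries of either control. SMARCC1, which encodes a core subunit of the BAF remodelling complexes, had 158 and 214, then 78 and 182, then 94 and 104. Enzyme-only library 3 lay between the RBFOX2-INSCRIBE libraries there, and enzyme-only library 2 lay below both buffer-only libraries.

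HDAC1 and HDAC2 are the paralogous catalytic subunits of the NuRD, SIN3 and CoREST complexes. HDAC2 (chr6:113933028-113971157) had 178 and 156 edited Cs in RBFOX2-INSCRIBE, 42 and 120 in enzyme-only and 56 and 48 in buffer-only. HDAC1 had 131 and 129, 64 and 95, and 59 and 59. In both genes the 2 RBFOX2-INSCRIBE libraries were above all 4 control libraries. Per C of the exons HDAC1 was the most edited gene of the set, with an editsC of 18.9% ± 0.21 (SD, n = 2) in RBFOX2-INSCRIBE. It was ahead of SMARCA5 with 15.3% ± 2.06 and SMARCC1 with 13.3% ± 2.84. SMARCA5 was above SMARCC1 in both libraries, and the difference between these genes was not tested.

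SMARCE1, a DNA-binding subunit of the BAF complexes, had 80 and 87 edited Cs in RBFOX2-INSCRIBE, 18 and 46 in enzyme-only and 40 and 29 in buffer-only. Its RBFOX2-INSCRIBE libraries stood clear of the controls, and its 2 control groups overlapped. The remodeller CHD6 had 44 and 61, then 18 and 53, then 22 and 14, and here enzyme-only library 3 lay among the RBFOX2-INSCRIBE values. KDM1A, a flavin-dependent histone demethylase, had 38 and 43, then 14 and 52, then 21 and 16, so that its highest value was in an enzyme-only library. The developmental remodeller CHD7 had 44 and 42, 41 and 27, and 32 and 24, a narrow spread in which RBFOX2-INSCRIBE was still the highest.

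CHD1 had 39 and 64 edited Cs in RBFOX2-INSCRIBE, 26 and 33 in enzyme-only and 11 and 14 in buffer-only, with the 3 groups apart. KDM5A had 48 and 53, then 15 and 32, then 18 and 23, and its 2 control groups overlapped. KATNAL1 had 46 and 36, 8 and 32, and 8 and 13, and SMARCAD1 had 44 and 60, 14 and 19, and 7 and 6. In both, the RBFOX2-INSCRIBE libraries were above the 4 control libraries.

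**Figure D2:**
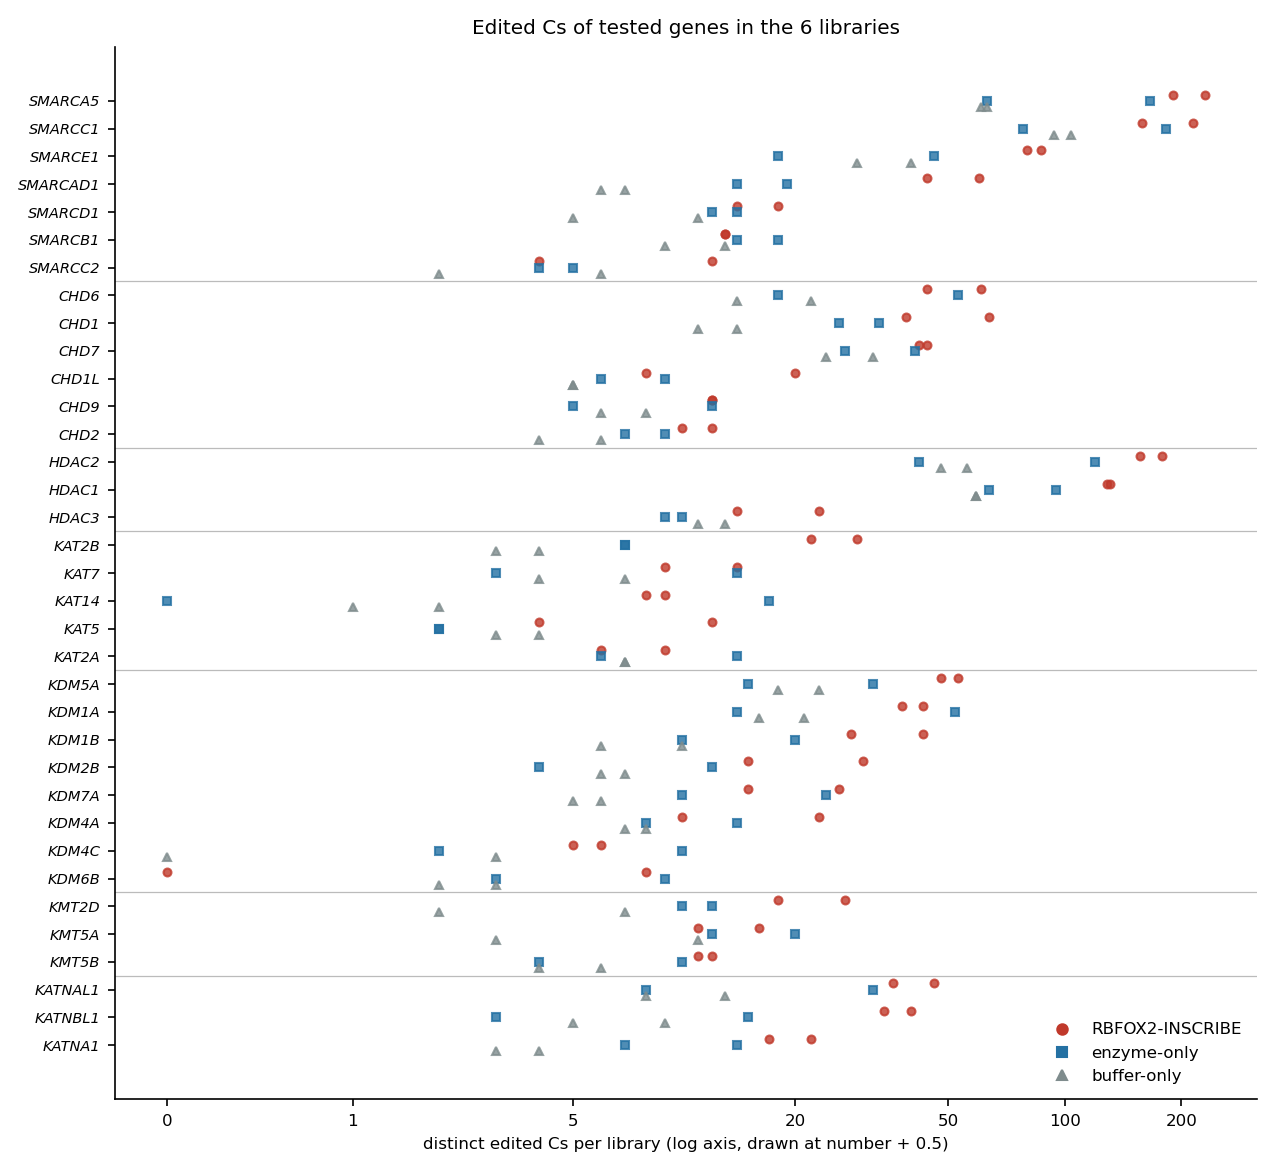
Distinct edited Cs per library (log axis, drawn at the number plus 0.5) for the genes that entered a test and are reported by name, ordered by family and by level, with 1 symbol per library. Most RBFOX2-INSCRIBE symbols lie to the right of the buffer-only symbols, while 1 of the 2 enzyme-only libraries often lies close to RBFOX2-INSCRIBE.

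To ask whether editing rose beyond the spread between libraries, log2 of edited Cs (plus 0.5) per C was compared with limma over all protein-coding genes that averaged 5 or more edited Cs across the 4 libraries of a comparison, and a gene was called at a Benjamini-Hochberg adjusted p under 0.05. Fold changes are on this scale, which understates changes of genes with few edits. Of the 46 genes 36 passed the filter in at least 1 comparison and 10 did not: SMARCA4, SMARCAL1, SMARCD2, CHD3, CHD4, KMT2A, KMT2C, KMT2E, KDM3B and KDM4D had 0 to 9 edited Cs per library.

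Against buffer-only, 18 of the 34 genes tested were higher in RBFOX2-INSCRIBE and none was lower, a share of 52.9%, and 61.1% of all 4560 genes tested were higher and 0.0658% lower. Both RBFOX2-INSCRIBE libraries were above both buffer-only libraries in 28 of the 34, or 82.4%, beside 80.7% of all genes. The median log2 difference was 1.21 for the 34 genes and 1.54 for all genes, so the share called and the median were both below those of all genes, a difference that was not tested. By family, 4 of 7 SMARC genes were called, 2 of 6 CHD, 2 of 3 HDAC, 2 of 5 KAT, 5 of 6 KDM, 0 of 3 KMT and 3 of 4 KATN genes. With all libraries 18 of the set had an unadjusted p under 0.05, where 66.7% of all genes did. The calls need both RBFOX2-INSCRIBE libraries: with either left out limma called no gene, in the set or among all genes tested. The median of the set was then 1.34 without library 1 and 1.30 without library 2, beside 1.58 and 1.53 for all genes.

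SMARCAD1 had the largest difference from buffer-only, a log2 difference of 2.89 ± 0.38 (SE; adjusted p = 0.0011, limma), with 44 and 60 edited Cs in RBFOX2-INSCRIBE against 7 and 6 in buffer-only. KAT2B followed with 2.70 ± 0.47 (29 and 22 against 4 and 3; adjusted p = 0.0030). Both are among the genes with recurrent edits next to UGCAUG. Those edits had to be absent from every control library, which favours genes with few control edits, so this match is partly built in. KATNBL1 and KATNA1, named next, have no UGCAUG in a listed isoform. KATNBL1 and KATNA1, a regulatory-like and a catalytic katanin protein, had 2.37 ± 0.35 (34 and 40 against 9 and 5) and 2.32 ± 0.36 (17 and 22 against 4 and 3) and are no chromatin genes. In enzyme-only KATNA1 had 7 and 14 edited Cs.

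KAT14, a subunit of the ATAC acetyltransferase complex, had a log2 difference from buffer-only of 2.21 ± 0.64 (adjusted p = 0.021) on only 8 and 9 against 1 and 2 edited Cs. KDM1B, the second flavin-dependent demethylase, had 28 and 43 against 6 and 10 (2.09 ± 0.45), and CHD1 39 and 64 against 11 and 14 (1.97 ± 0.43). For KATNAL1, another katanin protein, the counts were 46 and 36 against 8 and 13 (1.94 ± 0.46), and for the demethylase KDM7A 26 and 15 against 6 and 5 (1.76 ± 0.59; adjusted p = 0.035). In all 5 genes both RBFOX2-INSCRIBE libraries were above both buffer-only libraries. KDM1B had 10 and 20 edited Cs in enzyme-only, below RBFOX2-INSCRIBE, and KDM7A had 10 and 24, of which library 3 lay within the RBFOX2-INSCRIBE range. SMARCA5 had 1.75 ± 0.20 (adjusted p = 0.00075), HDAC2 1.67 ± 0.27 and HDAC1 1.1 ± 0.16.

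Genes with no call against buffer-only included SMARCB1, a core BAF subunit, with 13 and 13 edited Cs in RBFOX2-INSCRIBE against 9 and 13 in buffer-only (0.25 ± 0.53; adjusted p = 0.68). The acetyltransferase KAT2A had 6 and 9 against 7 and 7 (0.07 ± 0.53; adjusted p = 0.92). Its paralog KAT2B is the gene with the second largest difference named above, and the difference between the paralogs was not tested. KMT2D, an enhancer histone methyltransferase, had 27 and 18 against 7 and 2, with a large error (2.38 ± 1.15; adjusted p = 0.11).

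The size of these differences depended on the scale. Each library was therefore also scaled to an equal sum of edited Cs over all genes. No gene of the set was then called, beside 4 higher and 13 lower of all 4560 genes. An unadjusted p under 0.05 was found in 7 of the set, beside 1152 of all genes. The median turned to -0.23, beside 0.09 for all genes. Of the 34 genes 14 were then above 0, where all 34 had been without scaling. On that scale SMARCAD1 had a difference of 1.45 and KAT2B of 1.30, still above 0, while, among the genes called without scaling, HDAC1 (-0.36), KDM1A (-0.35), KDM5A (-0.19), SMARCC1 (-0.60) and SMARCE1 (-0.21) turned below 0.

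**Figure D3:**
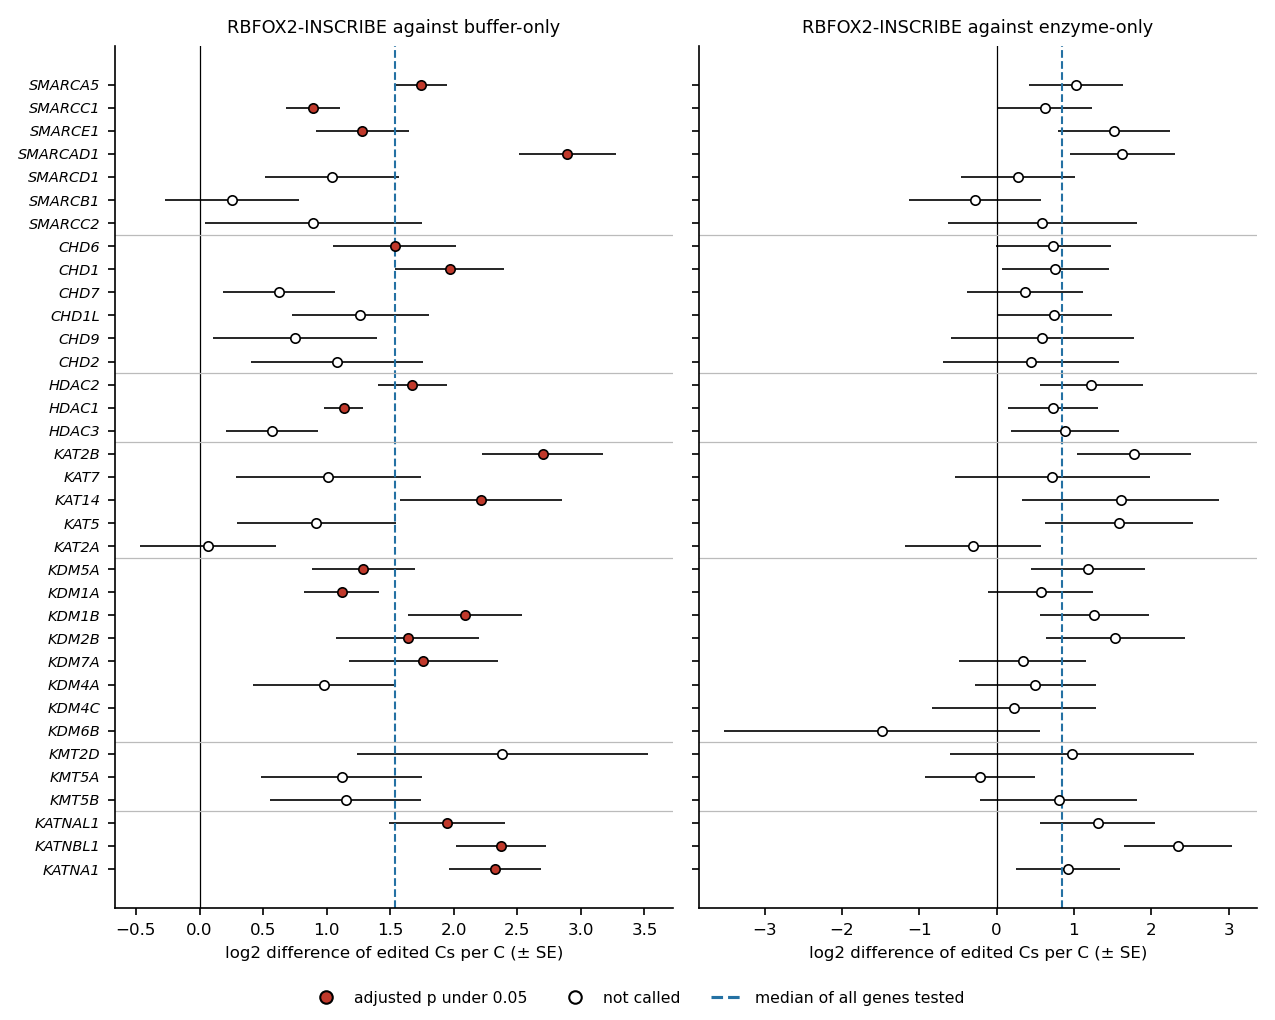
Log2 difference of edited Cs per C with its SE from limma for the tested genes reported by name, by family, for RBFOX2-INSCRIBE against buffer-only (left) and against enzyme-only (right). Filled points are called at an adjusted p under 0.05 and the dashed line is the median of all genes tested, 1.54 on the left and 0.84 on the right. On the right no point is filled.

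The comparison with enzyme-only asks what the antibody adds to the free enzyme. None of the 36 genes tested was called by limma in either direction, with 0.0207% of all 4820 genes called higher and 0.0% lower. KATNBL1, KAT2B, SMARCAD1 and SMARCE1 had an unadjusted p under 0.05, 4 of 36 genes, beside 16.7% of all genes. Both RBFOX2-INSCRIBE libraries were above both enzyme-only libraries in 19 genes, or 52.8%, beside 51.9% of all genes, and below both in 2, SMARCB1 among them, beside 3.57%. The median log2 difference was 0.74, and 0.84 over all genes.

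The 5 largest differences from enzyme-only were in KATNBL1, KAT2B, SMARCAD1, KAT14 and KAT5. KATNBL1 (chr15:34140674-34210096) had 34 and 40 edited Cs in RBFOX2-INSCRIBE against 3 and 15 in enzyme-only (2.34 ± 0.70; adjusted p = 0.16). KAT2B had 29 and 22 against 7 and 7 (1.78 ± 0.74; adjusted p = 0.25). SMARCAD1 had 44 and 60 against 14 and 19 (1.63 ± 0.68; adjusted p = 0.25). In these 3 genes the groups did not overlap.

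KAT14 (1.60 ± 1.27) had 0 edited Cs in enzyme-only library 2 and 17 in library 3 against 8 and 9, and its difference turned to -0.96 without library 2. KAT5, the acetyltransferase TIP60, had 4 and 12 against 2 and 2 (1.58 ± 0.96). At the lower end KDM6B, a jumonji-type demethylase, had 0 and 8 against 3 and 9 (-1.48 ± 2.04). Low differences were also found in KAT2A with 6 and 9 against 6 and 14 (-0.31 ± 0.88), SMARCB1 with 13 and 13 against 14 and 18 (-0.28 ± 0.85) and KMT5A, which methylates histone H4, with 16 and 11 against 20 and 12 (-0.22 ± 0.71). KDM6B, KAT2A, SMARCB1 and KMT5A did not differ from enzyme-only beyond their errors.

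This comparison turns on enzyme-only library 3. Without it limma called 10 genes of the set, all higher (HDAC1, HDAC2, KAT14, KATNAL1, KATNBL1, KDM1A, SMARCA5, SMARCAD1, SMARCC1 and SMARCE1), of 34 tested, beside 31.0% of all 4852 genes, with a median of 1.32. Without library 2 none was called and the median was 0.34. With a lone enzyme-only library, that library is assumed to vary like the RBFOX2-INSCRIBE libraries.

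Enzyme-only and buffer-only were also compared, both without the antibody. Of 32 genes tested limma called none, beside 0.65% of all 4001 genes called higher and 0.0% lower, and KATNA1 was the only gene of the set with an unadjusted p under 0.05, beside 15.2% of all genes. Both enzyme-only libraries were above both buffer-only libraries in 13 genes, beside 44.7% of all genes, and below both in 1, HDAC3, the deacetylase of the NCoR complex, with 9 and 10 against 13 and 11, beside 1.32%. The median difference was 0.54, and 0.69 for all genes. It was 0.96 without enzyme-only library 2 and 0.09 without library 3, with no gene of the set called in either case. These 3 comparisons share libraries, so their differences are not independent.

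APOBEC1 is known to favour a C that follows A or U. The share of edited Cs with A or U before them was 70.8% and 70.8% in RBFOX2-INSCRIBE, 63.5% and 67.1% in enzyme-only and 40.4% and 39.1% in buffer-only, where A or U precede 46.5% of all Cs of these exons. The groups did not overlap, at a two-sided exact permutation p of 0.33 for each pair, the smallest possible. In each of the 12 most edited genes both RBFOX2-INSCRIBE libraries had a higher share than both buffer-only libraries, and in 4 of the 12 both were above both enzyme-only libraries.

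In SMARCA5 the A or U share was 81.1% and 78.3% in RBFOX2-INSCRIBE, 79.4% and 78.9% in enzyme-only and 46.0% and 49.2% in buffer-only. The RBFOX2-INSCRIBE and enzyme-only libraries of this gene overlapped. HDAC2 had 72.5% and 74.4%, 52.4% and 63.3%, and 37.5% and 35.4%, with the 3 groups apart. Counting only edits after A or U was a setting added after seeing the data. With it limma called 20 of 26 genes against buffer-only, beside 84.9% of all genes. Against enzyme-only limma called none of 30, beside 0.555% of all genes. An unadjusted p under 0.05 was found in 7 of the 30, beside 778 of all 3961 genes. For enzyme-only against buffer-only limma called KMT5A alone of 19, beside 10.5% of all genes.

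Per C, edits of the chromatin genes leaned to the 3′ UTR in every library, though little in buffer-only. By number of edited Cs only RBFOX2-INSCRIBE library 1 had more in the 3′ UTR than in coding sequence. Library 2 had 739 and 740. In buffer-only 60.9% and 58.8% of edited Cs lay in coding sequence. In RBFOX2-INSCRIBE 52.9% and 48.5% of edited Cs of protein-coding isoforms lay in the 3′ UTR, in enzyme-only 45.9% and 41.2% and in buffer-only 33.5% and 34.2%. Per C, the log2 ratio of 3′ UTR to coding editsC was 1.31 and 1.03 in RBFOX2-INSCRIBE, 0.99 and 0.64 in enzyme-only and 0.17 and 0.25 in buffer-only. The RBFOX2-INSCRIBE libraries were the highest, with differences of 0.36 from enzyme-only and 0.96 from buffer-only and an exact permutation p of 0.33 for each. Over all genes the ratio was 0.62 and 0.69, 0.06 and 0.30, and -0.27 and -0.29.

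Single genes differed in where they were edited. KMT2D had 25 and 17 edited Cs in RBFOX2-INSCRIBE in a 3′ UTR of 711 Cs, and 2 and 1 in a coding sequence of 5444 Cs. KATNAL1 had 45 and 36 in its 3′ UTR and 1 and 0 in its coding sequence. KAT2B had 25 and 20 in its 3′ UTR against 7 and 4 in enzyme-only, and 4 and 2 in its coding sequence. In RBFOX2-INSCRIBE these genes were edited mostly after the stop codon.

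In the main SMARCAD1 isoform the 3′ UTR had 28 and 38 edited Cs in RBFOX2-INSCRIBE, 6 and 7 in enzyme-only and 1 and 1 in buffer-only, while the coding sequence had 7 and 13, 5 and 4, and 6 and 1. The groups lay further apart in the 3′ UTR than in the coding sequence. HDAC2 and SMARCA5 showed the other pattern. HDAC2 had 99 and 90 edited Cs in a coding sequence of 234 Cs, an editsC of 40.4%, against 3.76% in its 3′ UTR, and SMARCA5 had 21.7% in its coding sequence against 11.6% in its 3′ UTR. In the HDAC2 3′ UTR, edit fractions of RBFOX2-INSCRIBE were 0.38% and 0.08% at chr6:113940808 and 1.54% and 1.22% at chr6:113939570. Near its far end library 1 listed 50%. Depth along the 3′ UTR is unknown, and its part in this contrast was not tested.

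**Figure D4:**
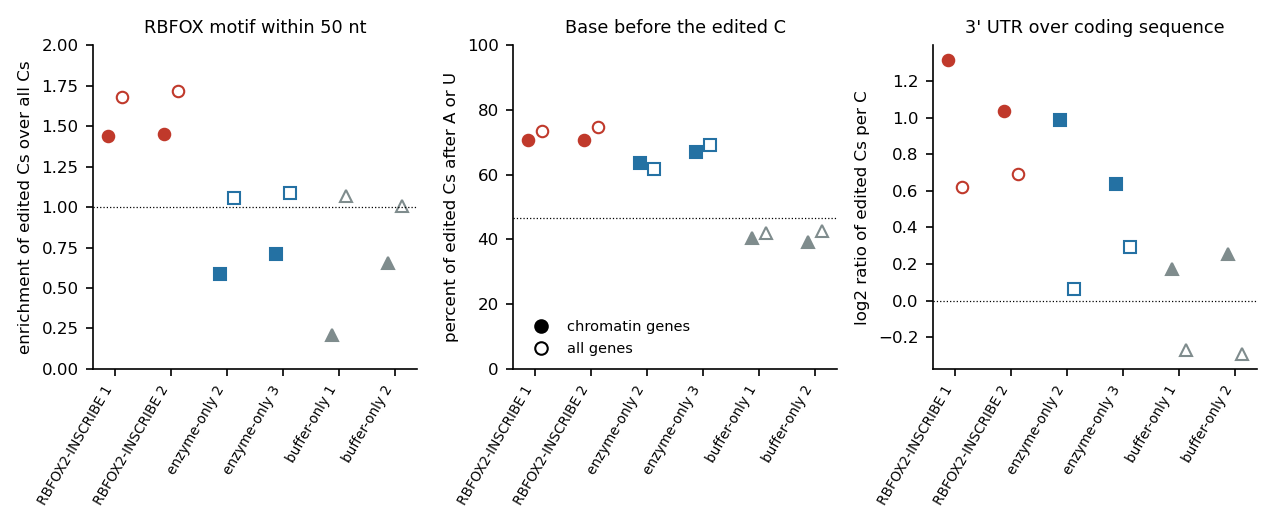
Features of edited Cs in each library for the chromatin genes (filled) and for all protein-coding genes (open): enrichment within 50 nt of the RBFOX motif UGCAUG over all Cs of the same isoforms (left), the percent of edited Cs after A or U (middle; dotted line, all Cs of the exons) and the log2 ratio of editsC in 3′ UTR and coding sequence (right). In each panel the 2 RBFOX2-INSCRIBE libraries of the chromatin genes are above the 4 control libraries.

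Few edited Cs recurred. Of 4462 distinct edited Cs in the 46 genes, 3428 were listed in 1 library only and none in all 6, and the study's filter had removed edits present in every sample. Both RBFOX2-INSCRIBE libraries shared 367, or 25.8% of the smaller library, both enzyme-only libraries 83 (14.3%) and both buffer-only libraries 41 (7.52%). Edits in both libraries of a group and in no other library numbered 188 for RBFOX2-INSCRIBE, 30 for enzyme-only and 12 for buffer-only. With more edited Cs per library, more can coincide.

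The 188 recurrent edits lay in 22 genes, most in SMARCA5 (46), HDAC2 (32), SMARCC1 (21), HDAC1 (13) and SMARCAD1 (11). Of them 109 were in 3′ UTRs and 70 in coding sequence, and 87.8% followed A or U. Within 50 nt of UGCAUG were 8 of the 188, or 4.26%, beside 0 of the 30 enzyme-only edits and 1 of the 12 buffer-only edits (8.33%). The share among all Cs of the isoforms, averaged over all edited Cs of a library, was 1.67% to 1.98%. It was not computed for the 188 edits. Their edit fractions were low, with a median of 0.30% for the mean of the 2 libraries, and 51 reached 1%. The highest was a 3′ UTR position of SMARCAD1 at chr4:94291241 with 1.92% and 10.5%, followed by the KDM5A 3′ UTR at chr12:282899 with 4.76% and 6.90% and the KDM7A 3′ UTR at chr7:140090475 with 4.17% and 6.25%. None of these 3 lies within 50 nt of UGCAUG.

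Counts of edited Cs weigh a C edited in 1 read like a C edited in many, so the edit fractions themselves were summed as well, a measure added after seeing the data. It is the mean edit fraction per C of an isoform, in percent, with edits above 0.8 left out. By it limma called 10 isoforms of 9 genes, of 38 tested, above their buffer-only level in RBFOX2-INSCRIBE, beside 40.7% of all isoforms. Those isoforms belonged to SMARCA5, HDAC2, CHD1 (both isoforms), KAT2B, KAT14, KDM1B, KDM7A, KATNA1 and KATNBL1. Against enzyme-only none of 41 was called, beside 0.0% of all 5413 isoforms. An unadjusted p under 0.05 was found in 4 of the 41, beside 597 of all isoforms.

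By this measure SMARCA5 had 0.0604% and 0.0569% in RBFOX2-INSCRIBE, 0.050% and 0.0495% in enzyme-only and 0.0122% and 0.0106% in buffer-only. The log2 difference from enzyme-only was 0.23 ± 0.35, where the number of edited Cs gave 1.03 ± 0.61, and neither exceeded its error enough to be called. KATNBL1 kept its distance, with 0.0968% and 0.120% against 0.0177% and 0.0405% in enzyme-only and 0.0182% and 0.0112% in buffer-only. SMARCAD1 had 0.0650% and 0.0884%, then 0.0364% and 0.0225%, then 0.0255% and 0.0028%, with RBFOX2-INSCRIBE again above all controls.

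HDAC2 had a mean edit fraction per C of 0.176% and 0.0952% in RBFOX2-INSCRIBE against 0.0125% and 0.0502% in enzyme-only and 0.0095% and 0.0059% in buffer-only. In RBFOX2-INSCRIBE library 1, 4 Cs at the far end of its 3′ UTR were listed at 50% each, and no other library listed an HDAC2 C at that fraction. Without them library 1 had 0.0618%, still above the 4 control libraries but below KATNBL1 in both RBFOX2-INSCRIBE libraries. The 3 HDAC2 edits near UGCAUG in that library are among them.

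For CHD7 and KATNAL1 the order turned, since enzyme-only library 2 had the highest mean edit fraction per C, 0.0602% in CHD7 against 0.0294% and 0.0261% in RBFOX2-INSCRIBE, and 0.0986% in KATNAL1 against 0.0638% and 0.0439%. By number of edited Cs the same library had 41 in CHD7 and 8 in KATNAL1.

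**Figure D5:**
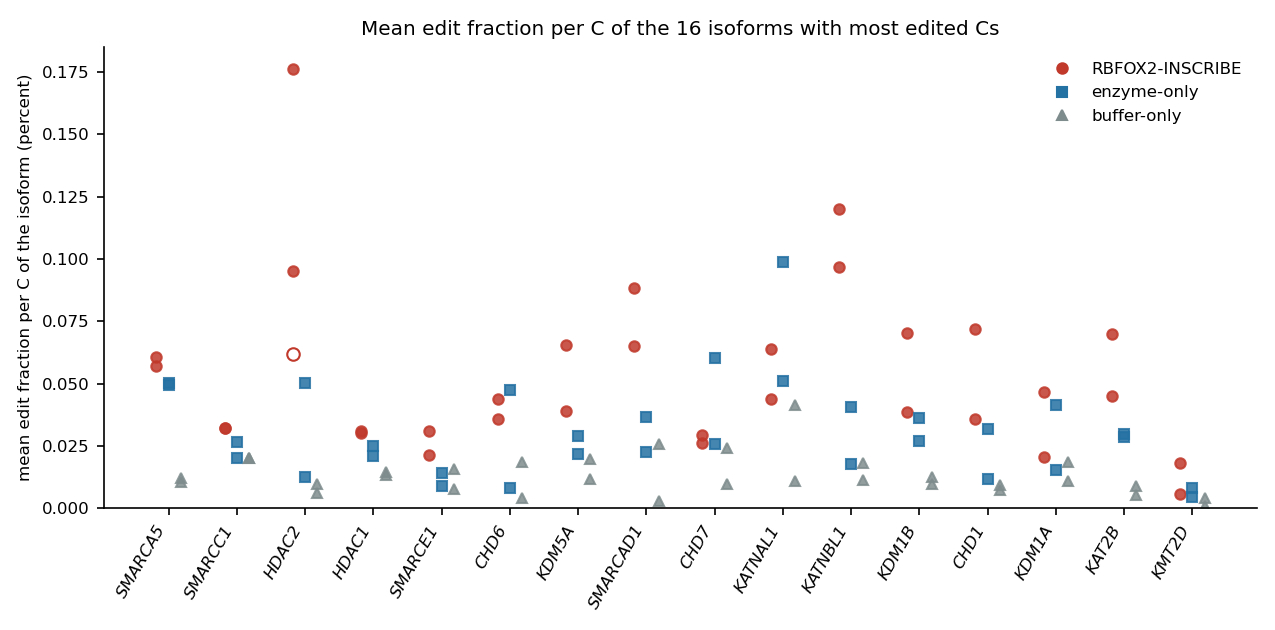
Mean edit fraction per C, in percent, of the 16 isoforms with most edited Cs in RBFOX2-INSCRIBE, with 1 symbol per library. The open circle is HDAC2 in RBFOX2-INSCRIBE library 1 without the 4 Cs listed at 50%. HDAC2, KATNBL1 and SMARCAD1 have the highest RBFOX2-INSCRIBE values, and in SMARCA5 the enzyme-only symbols lie just below RBFOX2-INSCRIBE.

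Long reads assign edits to isoforms, and 6 genes had 2 isoforms that each averaged 5 or more edited Cs in RBFOX2-INSCRIBE: SMARCE1, SMARCAD1, CHD1, KDM1A, SMARCB1 and CHD9. The SMARCAD1 isoforms ENST00000354268 and ENST00000359052 had 35 and 51 edited Cs and 13 and 13, with log2 differences from buffer-only of 3.3 and 3.17 (adjusted p = 0.0034 and 0.030). Both isoforms were called. With isoforms in place of genes limma called 20 of 38 isoforms of the set higher than in buffer-only, beside 3049 of all 5085 isoforms tested. The CHD1 mRNA ENST00000614616 had 26 and 43 edited Cs and the shorter retained-intron transcript ENST00000514344 13 and 23, and both were called as well (adjusted p = 0.010 and 0.017).

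In SMARCE1 the coding isoform ENST00000348513 had 61 and 69 edited Cs against 25 and 25 in buffer-only and was called (1.36; adjusted p = 0.0062). Its retained-intron transcript ENST00000646242 had 13 and 11 against 14 and 3 and was not (0.81; adjusted p = 0.39). KDM1A was called through ENST00000356634 (1.10; adjusted p = 0.037), with 34 and 28 edited Cs against 18 and 11, and not through ENST00000400181, with 4 and 16 against 4 and 5. For SMARCB1 neither isoform was called, and for CHD9 the 1 isoform tested was not. Differences between isoforms of a gene were not tested.

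Proteins that work with these enzymes but carry other names were followed in 8 lists of 140 genes, of which 103 had an edited C. Against buffer-only, 37 of 73 tested were higher and none lower, a share of 50.7% beside the 61.1% of all genes, with a median of 1.40. The calls were 7 of 10 BAF and PBAF partners, 2 of 5 NuRD partners, 5 of 9 SIN3, NCoR and CoREST partners and 4 of 8 COMPASS partners. Among the other lists they were 7 of 14 acetyltransferase partners, 5 of 9 ISWI and INO80 partners, 6 of 16 further histone methyltransferases and 1 of 2 further demethylases.

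Against enzyme-only none of 77 partners was called, beside 0.0207% of all genes called higher. An unadjusted p under 0.05 was found in 13 of the 77, beside 16.7% of all genes. The 5 largest differences were in SETD7, PRDM2, SUV39H2, RBBP5 and RIOX2. RBBP5, a core COMPASS subunit, had 40 and 28 edited Cs in RBFOX2-INSCRIBE against 4 and 15 in enzyme-only (2.02 ± 0.74; adjusted p = 0.21). SUV39H2, a heterochromatin methyltransferase, had 33 and 18 against 3 and 10 (2.04 ± 0.73; adjusted p = 0.21), and the demethylase-like protein RIOX2 51 and 21 against 5 and 14 (1.90 ± 0.75).

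SETD7 (4.0 ± 3.20), a lysine methyltransferase, and PRDM2 (2.65 ± 1.48) had 0 edited Cs in enzyme-only library 2 and large errors. SETD7 had 106 and 82 in RBFOX2-INSCRIBE and 68 in enzyme-only library 3. For enzyme-only against buffer-only none of 63 partners was called, 9 had an unadjusted p under 0.05 (15.2% of all genes did), and the median was 0.55.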

How the data were processed

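Edited positions of 6 libraries (RBFOX2-INSCRIBE, enzyme-only and buffer-only, 2 each) were used as deposited. Per the methods, the authors processed PacBio reads with ccs, skera, lima and refine, aligned them to hg38 with pbmm2, assigned isoforms with IsoQuant, called C-to-U edits with a custom program, and removed edits known as SNPs or present in all samples. The deposited value is an edit fraction per isoform and position, without read counts, so depth is unknown and calls may follow it. The annotation release behind the isoforms of the long reads is not given in the sources used here (the methods name one for short reads only), and GENCODE 44 was used. Edits on the strand of the gene and within its exons were counted. Genes were compared with limma 3.58.1 (trend and robust) in R 4.3.3 on log2((edited Cs + 0.5)/Cs) with Benjamini-Hochberg adjustment over all genes, and single values with two-sided exact permutation tests (scipy 1.17.1). The script was tested on simulated data. Named with values were the 12 most edited genes, the 10 largest called differences from buffer-only, the 5 largest and 5 smallest from enzyme-only and the genes with most recurrent edits near UGCAUG. One gene among these is not reported here. Other genes were named after their values were seen. Members and lists were chosen with earlier results of these data known. Alternatives covered pseudocounts, filters, scaling, strand, fractions, isoforms, motif distance, the fit and left-out libraries.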

Additional observations from a re-analysis of the deposited data

How the results depend on the processing

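Against buffer-only, 18 genes were called, and the count was 0 with edited Cs scaled to the same total, 4 (of 14 tested, beside 611 of 1714 genes) when edits below a fraction of 0.02 were dropped, 10 (of 34, beside 1974 of 4560 genes) with the 3 groups in one fit, 10 isoforms by mean edit fraction, and 0 to 13 when 1 library was left out (0 without either RBFOX2-INSCRIBE library). The median of 1.21 became 1.16 and 1.25 with pseudocounts of 1 and 0.1, 1.26 and 1.59 with means of at least 1 and 10 edited Cs, 1.15 with both strands, 1.65 with a fraction of at least 0.02, 2.34 with edits after A or U, 1.14 without the 4 katanin genes, -0.23 when scaled (0.09 over all genes), and 1.24 to 1.54 without 1 library. Scaled, 14 of the 34 genes were above 0 and the rest reversed, and of the 18 called HDAC1 (-0.36), KDM1A (-0.35), KDM5A (-0.19), SMARCC1 (-0.60) and SMARCE1 (-0.21) reversed.

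Against enzyme-only, the calls ranged from 0 to 10 (10 without enzyme-only library 3) and the median from 0.34 to 1.32 with 1 library left out, and the scaled median was -0.043 (0.05 over all genes). With 1 library left out, KAT14 ranged from -0.96 (without enzyme-only 2) to 4.17, KAT2A from -0.88 to 0.27 (without enzyme-only 3), KDM6B from -2.20 to 0.56 (without RBFOX2-INSCRIBE 1) and KMT5A from -0.57 to 0.14 (without enzyme-only 2), so each reversed, and KMT5A also did so with edits after A or U (0.045). For enzyme-only against buffer-only the median was -0.11 scaled (0.04 over all genes), 1.18 with a fraction of at least 0.02 and 1.21 with edits after A or U, where 1 gene was called. Apart from the construction of scaling and of fewer libraries, the causes were not tested. Directions of the motif, base and region results held under all alternatives run for them.

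The replicate block called 18 genes for RBFOX2-INSCRIBE against buffer-only. Enzyme-only libraries are numbered 2 and 3 in the titles but 1 and 2 in the replicate field. A replicate block on that field was added after seeing the data. Against enzyme-only it called 0 of 36 genes, and 25 over all genes in place of 1. There 4 of the set had an unadjusted p under 0.05, beside 778 of all 4820 genes. For enzyme-only against buffer-only it called 0 of 32, and 8 over all genes in place of 26. There 0 of the set had an unadjusted p under 0.05, beside 438 of all 4001 genes. Deviations of libraries with the same number in that field had correlations across genes of 0.03, 0.11 and -0.03 in the 3 comparisons. A match of enzyme-only by the numbers of the titles was not checked. Whether same-numbered libraries shared a slide is not given, and these correlations cannot show it. With 2 libraries a group and no read counts, a missing call does not show equal editing.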
